A study of Mus musculus with 11 samples.

Results

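*Coro2a*, *Adamts16*, *Crybb1* and *Myo18b* are 4 of the 31053 genes counted in the cortical nuclei of 11 mice. They were picked by their low level in microglia of mice with constitutively active IKKβ, so that low level is described here without a test. Tests are given only for other comparisons, and those that use the P301S mice share them with the comparison that chose the genes, so they are not independent of that choice. Non-transgenic mice kept Ikbkb, which encodes the NF-κB-activating kinase IKKβ (labelled ikbkb+/+, n = 4, 9.8 to 10.85 months old). P301S mice also carried PS19, a human tau transgene bearing the P301S mutation (ikbkb+/+;P301S+, n = 3, 9.15 to 10.75 months). Knockout P301S mice had the tau transgene and floxed Ikbkb alleles deleted by Cx3cr1-CreERT2, a tamoxifen-induced recombinase made in microglia and other Cx3cr1-expressing cells (ikbkb-/-;P301S+, n = 2, 8.39 to 9.15 months). Active IKKβ P301S mice had the tau transgene and an IKKβ that is always on, released by the same recombinase (ikbkbCA;P301S+, n = 2, 9.8 to 10.85 months). By the study's methods, the recombinase mice carried 1 Cx3cr1-CreERT2 allele, the non-transgenic and P301S mice none, and littermates without Cre also received tamoxifen, so Cre is shared by the knockout and active groups and absent from both others. All mice were labelled female, whereas the study's methods give male mice for RNA-seq, and Xist, transcribed from the inactive X chromosome, had 53441 or more UMIs in each of the 11 libraries.

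Title prefixes place the mice in 2 breeding lines. The floxed Ikbkb line gave non-transgenic mice 1 and 2, P301S mice 1 and 2 and both knockout mice. The active IKKβ line gave non-transgenic mice 3 and 4, P301S mouse 3 and both active IKKβ mice, so within that line the active IKKβ mice have a single P301S mouse to be compared with.

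The genes come from unrelated families. Coro2a encodes coronin 2A, an actin-binding WD-repeat protein that is also a component of the NCoR corepressor complex, which holds inflammatory genes silent in macrophages until the complex is released. Adamts16 encodes a secreted zinc metalloprotease of the ADAMTS family, which cuts extracellular matrix proteins. Crybb1 encodes the crystallin βB1, a structural protein of the eye lens whose transcript is also known from microglia, and Myo18b encodes an unconventional myosin known from the sarcomere of striated muscle. In the adult brain, microglia at rest express a set of homeostatic genes, and NF-κB activation switches on inflammatory genes together with its own inhibitors.

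By the GENCODE M21 annotation of GRCm38, *Coro2a* (ENSMUSG00000028337) lies on the minus strand at chr4:46536937-46602202 and *Adamts16* (ENSMUSG00000049538) on the minus strand at chr13:70727802-70841811. *Crybb1* (ENSMUSG00000029343) lies on the plus strand at chr5:112255815-112269585 and *Myo18b* (ENSMUSG00000072720) on the minus strand at chr5:112688876-112896362. All are protein-coding, and the latter 2 genes are 419.3 kb apart. Promoters matched by symbol in the RefSeq table (GRCm38.p6, from 250 bases before to 50 after a start) for *Coro2a*, with 2 starts, and for *Crybb1*. They are shown because they differ in base composition although both genes were low in the same mice. Capitals mark GC boxes (GGGCGG on either strand, overlapping matches merged) in the first and the SMAD-binding letters CAGACA (either strand) in the others.
Coro2a, chr4:46601880-46602179, minus strand: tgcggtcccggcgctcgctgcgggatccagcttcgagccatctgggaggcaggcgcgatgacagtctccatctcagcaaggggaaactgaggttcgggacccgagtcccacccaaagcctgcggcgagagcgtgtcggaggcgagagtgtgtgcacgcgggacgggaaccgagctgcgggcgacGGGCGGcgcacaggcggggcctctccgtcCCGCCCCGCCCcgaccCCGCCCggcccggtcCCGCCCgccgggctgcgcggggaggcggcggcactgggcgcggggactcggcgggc
Coro2a, chr4:46566391-46566690, minus strand: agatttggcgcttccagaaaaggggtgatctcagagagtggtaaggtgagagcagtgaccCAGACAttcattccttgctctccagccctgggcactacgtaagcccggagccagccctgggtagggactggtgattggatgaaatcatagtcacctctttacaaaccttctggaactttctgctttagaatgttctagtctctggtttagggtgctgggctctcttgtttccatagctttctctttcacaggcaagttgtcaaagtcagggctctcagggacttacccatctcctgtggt
Crybb1, chr5:112255570-112255869, plus strand: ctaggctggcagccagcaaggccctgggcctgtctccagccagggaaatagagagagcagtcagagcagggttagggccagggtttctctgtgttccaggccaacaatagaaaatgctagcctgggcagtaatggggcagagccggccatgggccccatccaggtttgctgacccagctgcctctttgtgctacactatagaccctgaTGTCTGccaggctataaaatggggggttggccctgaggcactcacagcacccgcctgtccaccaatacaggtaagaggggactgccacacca
The first *Coro2a* window has 76.0% GC, 43 CpG dinucleotides and 5 GC box matches, and its second window has 50% GC and 3 CpG. The *Crybb1* window has 58.33% GC and 2 CpG. Among 32851 promoters of this length, 35.7% held a GC box and 21.0% the letters CAGACA, so each match is common. None of the 3 windows held the PU.1 core GAGGAA (28.3% of promoters), the full SMAD box GTCTAGAC (0.213%), the AP-1 motif TGANTCA (7.81%) or the κB consensus (GGG, a purine, any base, 2 pyrimidines, CC; 9.38%). A match is only a match of letters, and no match says only that these letters are absent from the window.

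Libraries held 72007219 to 93205362 UMIs, each UMI standing for 1 captured RNA molecule, and 103065 nuclei were used. The microglia-like cluster held 4496 nuclei with 8 of 8 markers raised, 193 to 733 per mouse, and 387450 to 1622586 UMIs per mouse. Cx3cr1 was present in all mice. Of 7 monocyte and neutrophil markers, Ly6c2, S100a8, S100a9 and Chil3 were at 0 in these nuclei, while Ccr2 had 76, Fn1 46 and Plac8 2 UMIs. Their summed level was 1.85 and 10.8 CPM in active IKKβ P301S mice, 6.53 to 30.02 in P301S mice, 5.55 to 17.8 in non-transgenic mice and 14.4 and 15.4 in knockout P301S mice. The 2 lowest levels of Ikbkb were those of the knockout mice (110 and 113 CPM against 123 to 167 in the other 9 mice). The knockout change in Ikbkb did not pass the test (log2 fold change -0.32, edgeR adjusted p = 0.60), and counts from the 3′ end need not see the deleted part. Active IKKβ P301S mice had 167 and 151 CPM of Ikbkb, the second within the range of the mice without active IKKβ, and their difference from P301S mice did not pass either (0.16, edgeR adjusted p = 0.93), so the counts do not check that label. Pairs of libraries shared at most 45 barcodes. All levels below are CPM, the UMIs of a gene per 1000000 UMIs of microglia-like nuclei of that mouse, unless another cell type is named.

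*Coro2a* was lower in both active IKKβ mice than in any other mouse. Its level was 30.8 and 47.8 CPM in active IKKβ P301S mice 1 and 2, from 50 and 71 UMIs. P301S mice had 132, 126 and 140 CPM, and the last value is that of the mouse from the active line. Non-transgenic mice had 129, 80.1, 118 and 84.6 CPM, and knockout P301S mice 95.9 and 96.6 CPM. The group means were 39.3 ± 12.02 (SD, n = 2) in active IKKβ P301S mice, 132.5 ± 7.19 (SD, n = 3) in P301S mice, 103 ± 24.1 (SD, n = 4) in non-transgenic mice and 96.2 ± 0.548 (SD, n = 2) in knockout P301S mice. The other mice, of both lines, had 80.1 CPM or more. *Coro2a* was chosen for this fall, so nothing is read from the gap.

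*Adamts16* was low in the same 2 mice, and its level also differed between breeding lines. Active IKKβ P301S mice had 16.6 and 21.6 CPM (27 and 32 UMIs). The 3 other mice of the active line had 53.6 and 72.1 CPM (non-transgenic) and 71.4 CPM (P301S). The 6 floxed-line mice had 131 and 119 CPM (non-transgenic), 85.2 and 149 CPM (P301S) and 94.2 and 111 CPM (knockout P301S). These are 3 steps that do not overlap, with the active IKKβ mice lowest, the rest of their line between and the floxed line highest. Group means were 19.1 ± 3.47 (SD, n = 2) for active IKKβ P301S, 101.7 ± 41.2 (SD, n = 3) for P301S, 94.1 ± 37.1 (SD, n = 4) for non-transgenic and 102.6 ± 11.9 (SD, n = 2) for knockout P301S mice, and the wide spread of the P301S and non-transgenic groups holds both lines.

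*Crybb1* had its 2 lowest levels in the active IKKβ P301S mice too, at 16.6 and 12.1 CPM (27 and 18 UMIs). P301S mice had 85.2, 49.0 and 28.7 CPM, and the lowest is the active-line mouse. Non-transgenic mice had 75.7, 53.4, 103 and 74.9 CPM, and knockout P301S mice 69.9 and 74.0 CPM. The P301S mouse of the active line was thus the lowest of the 9 mice without active IKKβ, while the 2 non-transgenic mice of that line were not low. Group means were 14.4 ± 3.19 (SD, n = 2) for active IKKβ P301S, 54.3 ± 28.6 (SD, n = 3) for P301S, 76.8 ± 20.4 (SD, n = 4) for non-transgenic and 71.9 ± 2.94 (SD, n = 2) for knockout P301S mice.

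*Myo18b* was lowest in the same 3 mice as *Crybb1*, while the order of the other mice differed. Its level was 22.8 and 20.2 CPM in active IKKβ P301S mice (37 and 30 UMIs) and 27.4 CPM (41 UMIs) in the P301S mouse of the active line. The other P301S mice had 98.1 and 83.3 CPM, non-transgenic mice 124, 132, 90.7 and 128 CPM, and knockout P301S mice 68.2 and 158 CPM. The single P301S mouse of the active line therefore stood next to the active IKKβ mice and apart from the other 8 mice. Group means were 21.5 ± 1.84 (SD, n = 2) for active IKKβ P301S, 69.6 ± 37.3 (SD, n = 3) for P301S, 118 ± 18.8 (SD, n = 4) for non-transgenic and 113 ± 63.7 (SD, n = 2) for knockout P301S mice.

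For all 4 genes, both active IKKβ mice lay below the other 9 mice, which 2.59% of the 9001 genes tested in these nuclei did as well. Nothing is read from that count, since the genes were chosen for it.

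**Figure D1:**
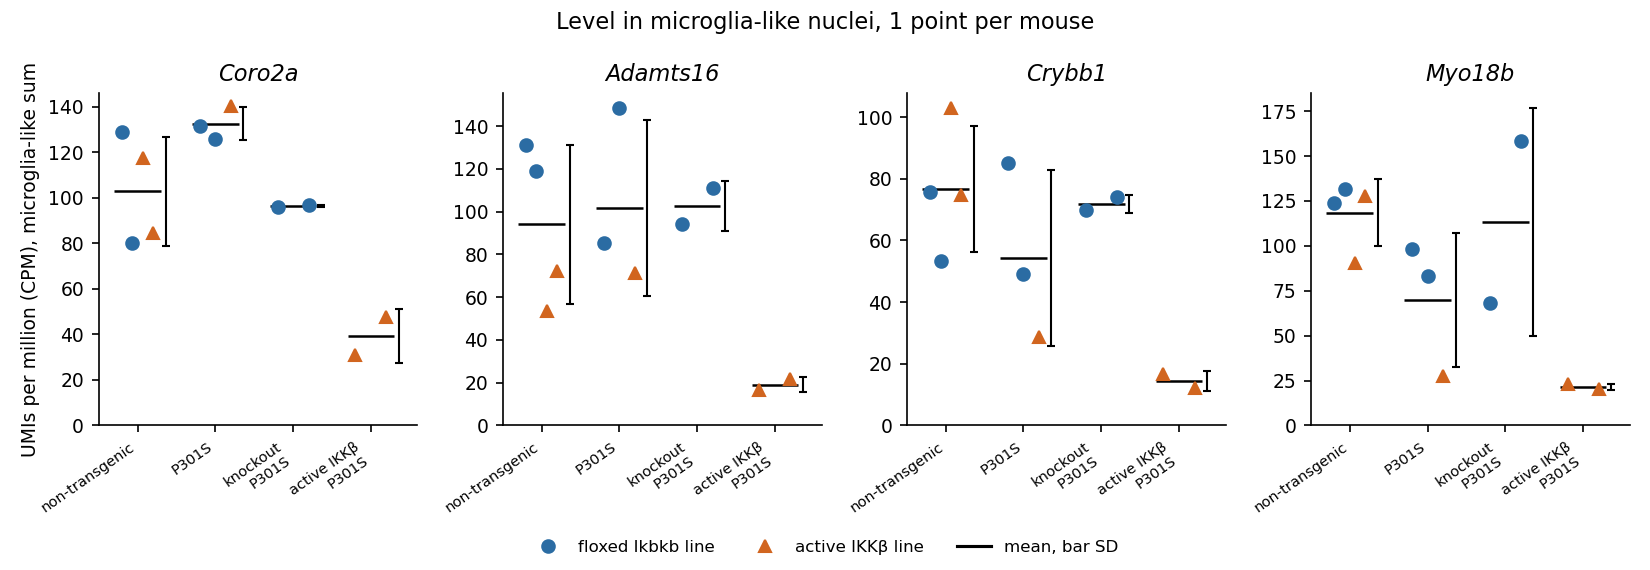
Level of each gene in microglia-like nuclei (vertical axis, CPM) for the 4 genotype groups, with 1 point per mouse, a line at the group mean and a bar of 1 SD. Circles are floxed-line mice and triangles active-line mice. The triangle of the P301S group is high for *Coro2a* (140), below both circles of its group for *Adamts16* (71.4) and near the active IKKβ mice for *Crybb1* (28.7) and *Myo18b* (27.4).

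How far *Adamts16*, *Crybb1* and *Myo18b* lay below the P301S mice depended on which P301S mice they were set against, while *Coro2a* moved little. Against all P301S mice, the log2 fold change in the edgeR fit was -1.78 ± 0.22 (SE) for *Coro2a*, -2.39 ± 0.35 for *Adamts16*, -1.71 ± 0.38 for *Crybb1* and -1.50 ± 0.43 for *Myo18b*. In this contrast 1.47% of all genes were called, 86 higher and 46 lower, where a call needs an adjusted p (Benjamini-Hochberg) under 0.05 and a log2 fold change beyond 0.1 in either direction. Against the P301S mouse of the active line alone, the value was -1.81 ± 0.26 for *Coro2a* and -1.87 ± 0.30 for *Adamts16*. For *Crybb1* it was -0.95 ± 0.37, and for *Myo18b* it was -0.31 ± 0.41. Within the active line 0.755% of all genes were called. This comparison is of 2 mice with 1, and it takes the lone mouse to vary as much as the other groups do.

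In plain ratios of CPM, the P301S mouse of the active line had 3.56 times the mean of the active IKKβ mice for *Coro2a* and 3.74 times for *Adamts16*. For *Crybb1* it had 1.99 times, and for *Myo18b* 1.27 times. With breeding line as a term in the fit to all mice, the differences were -1.78 for *Coro2a*, -1.82 for *Adamts16*, -1.57 for *Crybb1* and -0.98 for *Myo18b*. The value of *Coro2a* thus moved little between these comparisons, and that of *Myo18b* moved most. These values chose the genes, so their errors are given as a description and not as a test.

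Set against non-transgenic mice, *Crybb1* and *Myo18b* had larger differences than against P301S mice, and *Coro2a* a smaller one. The log2 fold change of active IKKβ P301S mice was -1.40 ± 0.22 for *Coro2a*, -2.31 ± 0.35 for *Adamts16*, -2.43 ± 0.35 for *Crybb1* and -2.50 ± 0.39 for *Myo18b*, in a contrast where 3.52% of all genes were called. Against the 2 non-transgenic mice of the active line the values were -1.37 ± 0.26, -1.77 ± 0.30, -2.62 ± 0.30 and -2.39 ± 0.31 in the same order. *Myo18b* thus lay far below the non-transgenic mice of its own line while lying close to its P301S mouse, and *Crybb1* lay between these cases, nearer to the P301S mouse than to the non-transgenic mice. These contrasts share the active IKKβ mice, so they are not separate evidence.

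**Figure D2:**
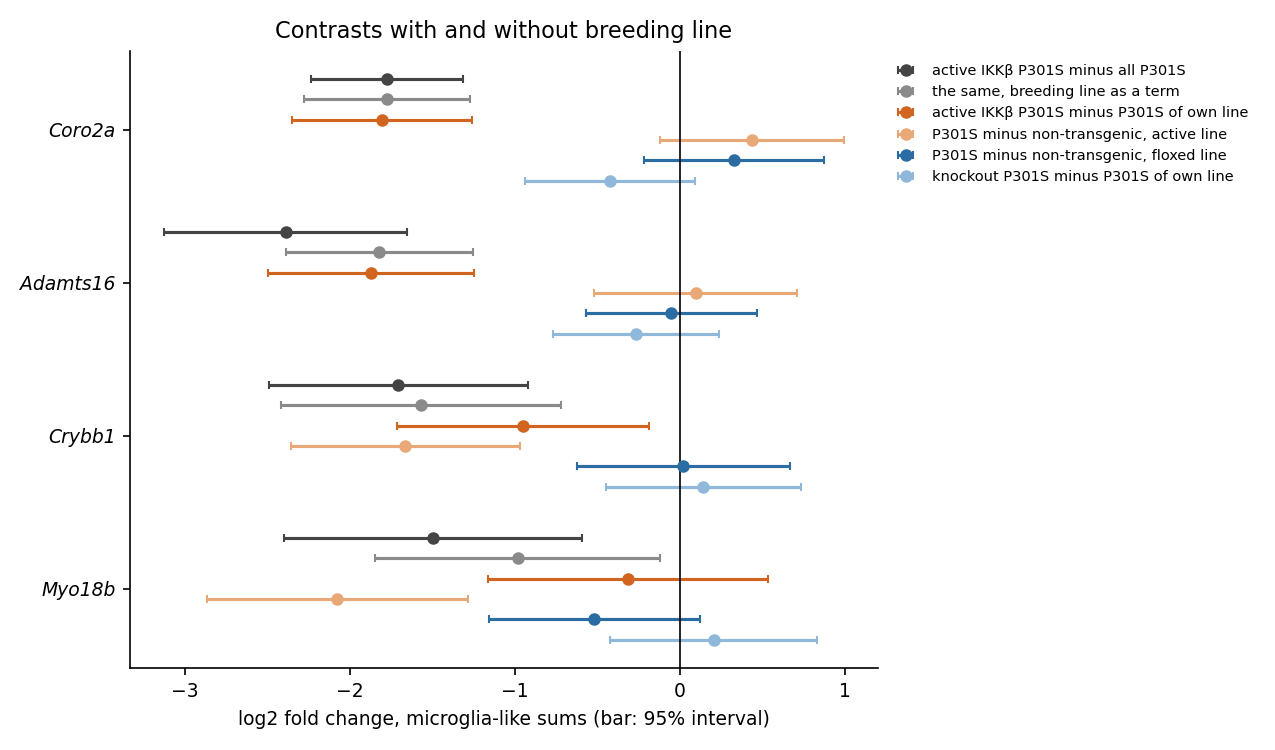
Log2 fold changes of microglia-like sums (horizontal axis) for each gene, with bars of the 95% interval and 1 colour per contrast. For *Coro2a* and *Adamts16* the 3 active IKKβ estimates lie between -2.39 and -1.78, whereas for *Myo18b* they run from -1.50 against all P301S mice to -0.31 against the P301S mouse of the own line, and the P301S contrast in the active line stands at -2.08.

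The next comparison asks whether tau alone moved these genes. No member (0 of 4) passed the test between P301S and non-transgenic mice of both lines, where 0.0333% of genes were called. The log2 fold change was 0.38 ± 0.19 for *Coro2a* (edgeR adjusted p = 0.62), 0.08 ± 0.27 for *Adamts16* (0.97), -0.72 ± 0.29 for *Crybb1* (0.50) and -0.9995 ± 0.34 for *Myo18b* (0.35). *Crybb1* and *Myo18b* passed an unadjusted p of 0.05, and 737 genes did so in all. DESeq2 called 4 genes and edgeR 3.

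Within the active line, the levels of *Myo18b* and *Crybb1* were lower in the P301S mouse than in its 2 non-transgenic line mates. The fitted log2 difference was -2.08 ± 0.38 for *Myo18b*, -1.66 ± 0.33 for *Crybb1*, 0.44 ± 0.27 for *Coro2a* and 0.10 ± 0.30 for *Adamts16*. These values are a description without a test, since the P301S side is 1 mouse, whose spread is taken from the other groups and whose values are part of the contrast that chose the genes. In the floxed line, with 2 mice on each side, the 4 values ran from -0.52 ± 0.31 for *Myo18b* to 0.33 ± 0.26 for *Coro2a*, with *Crybb1* at 0.02 ± 0.31. No gene was called there (0% of 9001, 349 at an unadjusted p under 0.05 in edgeR).

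The active-line value minus the floxed-line value was -1.68 ± 0.46 for *Crybb1* and -1.56 ± 0.49 for *Myo18b*, which rests on the same mouse and is likewise given without a test. The P301S mouse of the active line had the largest share of microglia-like nuclei (7.38%), against 2.58 and 3.04% in the other P301S mice, 2.65 to 3.76% in non-transgenic mice, 5.94 and 2.79% in knockout P301S mice and 6.97 and 5.80% in active IKKβ P301S mice. It also had the highest summed level of the 7 monocyte and neutrophil markers (30.02 CPM). The part of either in the low *Crybb1* and *Myo18b* was not tested. Without this mouse, the P301S group is all of the floxed line. The values of P301S against non-transgenic mice were then -0.41 for *Myo18b* and -0.24 for *Crybb1* (edgeR adjusted p = 0.99 for both). The distance of the active IKKβ mice from P301S mice grew to -2.08 for *Myo18b* and -2.18 for *Crybb1*. In that contrast genotype and line cannot be told apart.

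Loss of Ikbkb did not pass the test for any of the 4 genes. Against P301S mice the log2 fold change of knockout P301S mice was -0.45 ± 0.22 for *Coro2a* (95% interval -0.90 to -0.00031), 0.05 ± 0.31 for *Adamts16* (-0.60 to 0.69), 0.62 ± 0.33 for *Crybb1* (-0.061 to 1.30) and 0.81 ± 0.39 for *Myo18b* (0.0052 to 1.62). Their edgeR adjusted p ran from 0.55 to 0.98, and 0% of genes were called by edgeR or DESeq2, with 805 at an unadjusted p under 0.05 in edgeR. Both knockout mice are of the floxed line, while the P301S group also holds the active-line mouse that was low in *Crybb1* and *Myo18b*. Against P301S mice of their own line the values were -0.42 ± 0.25, -0.27 ± 0.24, 0.14 ± 0.29 and 0.20 ± 0.30 in the same order. Against non-transgenic mice of both lines they were -0.07 ± 0.21, 0.12 ± 0.30, -0.10 ± 0.30 and -0.19 ± 0.35. Their edgeR adjusted p was 0.98 to 0.99, and again 0% of genes were called (414 at an unadjusted p under 0.05). The 95% intervals of the last comparison reach from -0.52 to 0.37 for *Coro2a* and from -0.91 to 0.54 for *Myo18b*, so changes within these ranges are not excluded. Knockout and active IKKβ mice both carry Cx3cr1-CreERT2. Nothing is read from the gap in level between these groups, since the low active IKKβ levels chose the genes. The knockout group is all of the floxed line and the active group all of the active line, so genotype and line cannot be told apart in that pair.

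The level of *Adamts16* differed between the breeding lines in mice of the same genotype. With genotype in the fit, *Adamts16* was lower in the active line (-0.91 ± 0.19 on the log2 scale, edgeR adjusted p = 0.042), a term for which 0.3% of genes were called. Left-out mice changed this call often. It was kept without P301S mouse 1 or either active IKKβ mouse (edgeR adjusted p = 0.013 to 0.025), and lost without any of the other 8 mice (edgeR adjusted p = 0.053 to 0.34), with the same direction in all 11 fits. The other genes did not pass, at -0.77 ± 0.28 for *Myo18b* (edgeR adjusted p = 0.48), -0.22 ± 0.28 for *Crybb1* (0.92) and -0.00 ± 0.19 for *Coro2a* (1.0). The 3 active-line mice without active IKKβ all lay below the 6 floxed-line mice for *Adamts16* and for none of the other members, while 1.5% of all genes had this pattern. In other nuclei, the line term of *Adamts16* was -0.43 ± 0.15 in inhibitory neuron-like nuclei (edgeR adjusted p = 0.33) and 0.04 ± 0.14 in excitatory neuron-like nuclei (0.92).

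Counting nuclei rather than UMIs describes the same UMIs of the same mice in another way. It is not separate evidence of the low levels that chose the genes. Thinning to 1000 UMIs per nucleus left out 59 of the 4496 microglia-like nuclei. *Coro2a* was then seen in 3.84 ± 1.07% (SD, n = 2) of nuclei in active IKKβ P301S mice, against 10.3 ± 3.12% (n = 3) in P301S mice, 9.38 ± 1.81% (n = 4) in non-transgenic mice and 8.51 ± 1.504% (n = 2) in knockout P301S mice. *Adamts16* was seen in 1.35 ± 0.25% of nuclei in active IKKβ P301S mice, against 9.20, 7.59 and 7.98% in P301S, non-transgenic and knockout P301S mice. The share for *Crybb1* was 1.36 ± 0.48% against 5.77, 8.20 and 7.98%, and that for *Myo18b* was 2.19 ± 0.22% against 7.08, 8.78 and 9.75%. A nucleus with any of the 4 transcripts made up 7.48 and 9.52% of the nuclei in the active IKKβ mice and 23.6% or more in each of the other mice.

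The mouse-level shares placed the P301S mouse of the active line much as the CPM did. *Coro2a* was in 13.4% of its thinned nuclei, the highest of the 11 mice. *Myo18b* was in 2.90%, near the 2.35 and 2.04% of the active IKKβ mice. The non-transgenic mice of that line did not share the low *Myo18b* value, at 5.66 and 11.1%. Without thinning, the shares were 8.13% for *Coro2a*, 4.09% for *Adamts16*, 3.26% for *Crybb1* and 4.62% for *Myo18b* in active IKKβ mice, and 15.6, 13.7, 12.6 and 18.7% in non-transgenic mice. Oligodendrocyte-like nuclei, thinned alike, had *Coro2a* in 0.463%, *Adamts16* in 0.298%, *Myo18b* in 0.0276% and *Crybb1* in 0.0221%. Median depth was 2055 UMIs in microglia-like and 2368 in oligodendrocyte-like nuclei before thinning.

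**Figure D3:**
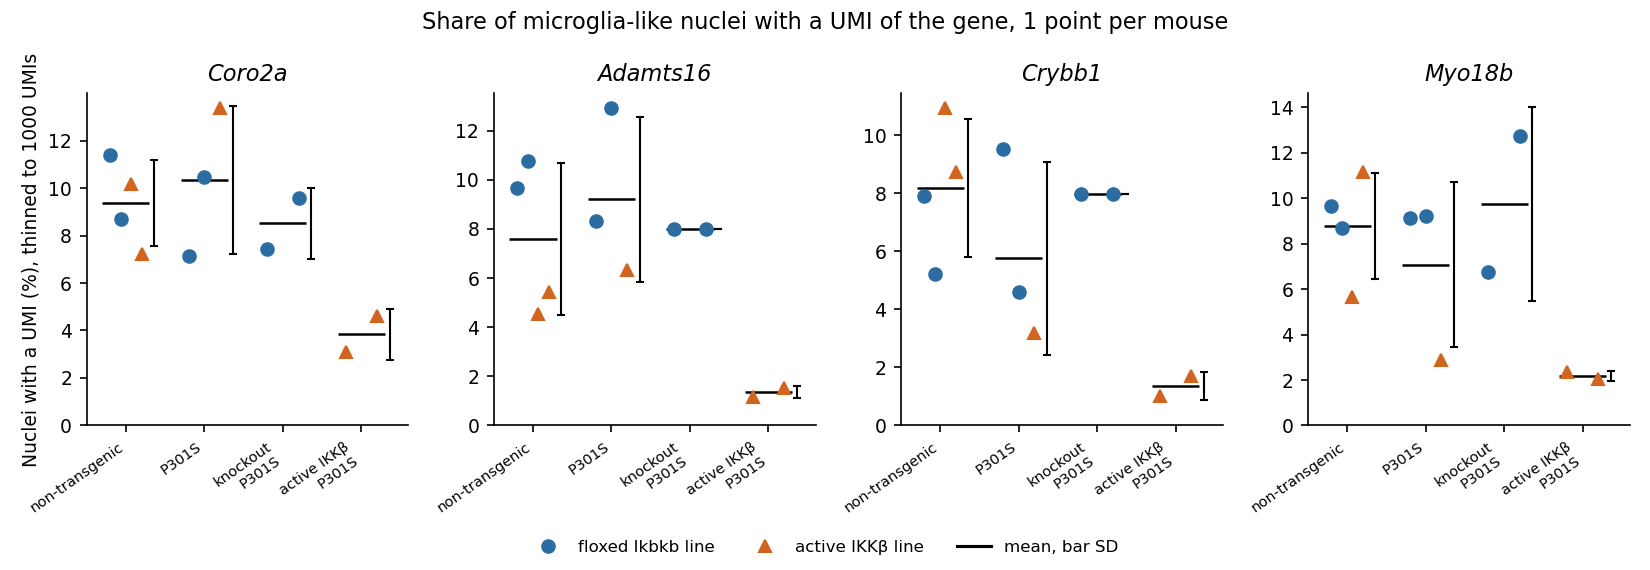
Share of microglia-like nuclei with at least 1 UMI of the gene after thinning to 1000 UMIs (vertical axis, percent), with 1 point per mouse, a line at the group mean and a bar of 1 SD. Circles are floxed-line and triangles active-line mice. Both active IKKβ mice are the lowest for every gene, from 1.03 to 4.59%.

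By exact permutation over mice, two-sided, no thinned share of a gene passed 0.05 between P301S and non-transgenic mice (p = 0.31 to 0.60, smallest possible 0.0286). Between knockout P301S and P301S mice p was 0.4 to 0.8, where 0.1 is the smallest possible, and between knockout P301S and non-transgenic mice it was 0.6 to 0.93, where 0.0667 is the smallest possible. The share of microglia-like nuclei among all nuclei was 6.39 ± 0.83% (SD, n = 2) in active IKKβ P301S mice and 3.18 ± 0.46% (n = 4) in non-transgenic mice (exact permutation p = 0.0667, the smallest possible). In P301S mice it was 4.33 ± 2.65% (n = 3), and active IKKβ mice against these gave an exact permutation p of 0.4, where 0.1 is the smallest possible. Fewer expressing nuclei and less RNA per nucleus cannot be told apart in sums over nuclei.

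Other myeloid cells in the cluster were followed through their markers. The summed level of 10 border macrophage markers was 248 and 451 CPM in the active IKKβ P301S mice, 360 to 712 in P301S mice, 255 to 907 in non-transgenic mice and 539 and 683 in knockout P301S mice. All 10 markers were detected, led by Stab1, F13a1 and Mrc1 in non-transgenic mice. Lyve1 (11 UMIs in all mice) and Pf4 (2 UMIs) were at 0 in active IKKβ mice, and Pf4 also in knockout P301S mice. Ms4a7 (98 UMIs) alone was highest in active IKKβ mice, at 14.2 CPM over the pooled group. Its pooled level was 7.86 CPM in non-transgenic, 9.205 in P301S and 8.15 in knockout P301S mice. With every nucleus carrying at least 2 such UMIs left out, the log2 fold changes against P301S mice were -1.70 for *Coro2a*, -2.40 for *Adamts16*, -1.93 for *Crybb1* and -1.62 for *Myo18b*.

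Per UMI of the cell type, *Crybb1* and *Myo18b* stood far higher in microglia-like nuclei than in any other type named here, and *Coro2a* and *Adamts16* also had sizeable levels elsewhere. In non-transgenic mice, *Crybb1* stood at 76.8 ± 20.4 CPM (SD, n = 4) in microglia-like nuclei and at most at 0.467 ± 0.422 elsewhere (astrocyte-like). *Myo18b* stood at 118 ± 18.8 CPM there and at most at 1.74 ± 0.556 elsewhere (oligodendrocyte precursor-like). For both genes the 4 microglia-like values lay above those of every other type, and the types below them overlapped with their neighbours in the order of means.

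*Adamts16* stood at 94.1 ± 37.1 CPM in microglia-like nuclei, again above all other types. Inhibitory neuron-like (17.5 ± 2.93), ependymal or choroid-like (14.6 ± 18.3), mural-like (11.5 ± 16.4), excitatory neuron-like (10.9 ± 0.988), striatal projection neuron-like (10.6 ± 3.19) and astrocyte-like nuclei (9.87 ± 2.26) followed, each overlapping with the next. *Coro2a* was highest in microglia-like nuclei (103 ± 24.1) and next in endothelial-like nuclei (80.8 ± 76.4, 28 UMIs in 4 mice), which overlapped. Excitatory neuron-like nuclei had 39.1 ± 3.32 and inhibitory neuron-like nuclei 18.2 ± 4.997 CPM, a step without overlap.

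Since microglia are few, most UMIs of *Coro2a*, *Adamts16* and *Myo18b* came from elsewhere. Microglia-like nuclei held 3.50% of all *Coro2a* UMIs and 6.66% of *Adamts16* UMIs, against 40.8% for *Myo18b* and 83.6% for *Crybb1*. Excitatory neuron-like nuclei held 46.8% of the *Coro2a* UMIs and 28.4% of those of *Myo18b*, and inhibitory neuron-like nuclei held 12.8% of the latter. Unnamed clusters held 31.2% of *Coro2a*, 21.9% of *Adamts16*, 12.02% of *Myo18b* and 4.21% of *Crybb1* UMIs.

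**Figure D4:**
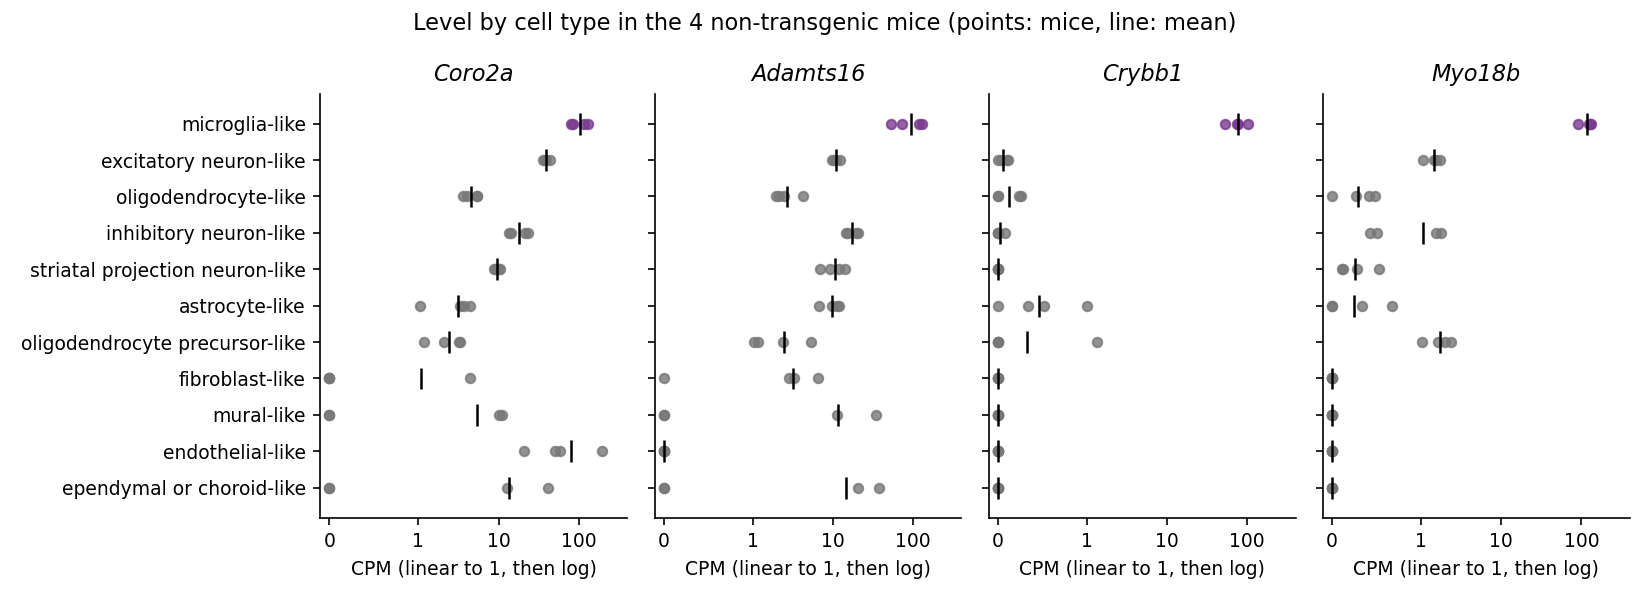
Level of each gene by cell type in the 4 non-transgenic mice (horizontal axis, CPM, linear up to 1 and logarithmic above), with 1 point per mouse and a line at the mean. *Crybb1* and *Myo18b* reach 76.8 and 118 in microglia-like nuclei and at most 0.467 and 1.74 elsewhere, while *Coro2a* and *Adamts16* also stand at 39.1 and 10.9 in excitatory neuron-like nuclei.

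Outside microglia the active IKKβ contrast, which did not choose the genes there, gave no call for *Coro2a*, *Adamts16* or *Myo18b* where edgeR tested them. *Crybb1* passed the filter on low counts in no other type fitted, so edgeR gave no test of it there. *Myo18b* passed it only in excitatory and inhibitory neuron-like nuclei. In 13 fits of a member in another type, 0 were called by edgeR or DESeq2, 0 had an unadjusted p under 0.05 (lowest 0.078, lowest adjusted p = 0.72 in edgeR), and 0 were called on leaving out any mouse. *Coro2a* differed by 0.03 ± 0.11 in excitatory neuron-like nuclei and by 0.05 ± 0.30 in inhibitory neuron-like nuclei. *Adamts16* differed by -0.21 ± 0.17 and -0.13 ± 0.22 in the same types. The 13 values ran from -1.22 to 0.50, and the lowest was that of *Coro2a* in astrocyte-like nuclei (-1.22 ± 0.72, edgeR adjusted p = 0.94). *Coro2a* stood there at 1.23 and 1.62 CPM in active IKKβ P301S mice (3 and 6 UMIs) and at 7.60, 1.54 and 1.89 CPM in P301S mice. The difference was negative on leaving out any mouse, and it was -0.20 without P301S mouse 1. Few genes moved there at all, with 0.00607% called in excitatory neuron-like nuclei, 0.0155% in oligodendrocyte-like nuclei and 0% in 7 other types, where 71 to 998 genes had an unadjusted p under 0.05 and DESeq2 called up to 6.

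Genes with the most similar profile over the 11 mice were found by the root mean square difference of log2 CPM, each gene centred on its own mean. For *Coro2a* these were Serpine2, a secreted protease inhibitor (difference 0.339), Prkg1, a cGMP-dependent kinase (0.345), and Usp2, a deubiquitinase (0.372). For *Adamts16* they were Mmp28, a matrix metalloproteinase (0.431), Rtp4 (0.437) and Adcy8, an adenylate cyclase (0.442). For *Myo18b* they were Slc5a10, a sugar transporter (0.282), Hsf2bp (0.397) and Adcy8 (0.429), and for *Crybb1* they were Abcg3 (0.366), *Myo18b* itself (0.453) and Glis3, a zinc finger transcription factor (0.482). The 11 mice include the 2 whose low values chose all 4 genes, so closeness among the 4 is partly fixed by that choice and is given as a description. Rank 1 is the most similar of the 9001 genes, and the rank of a pair depends on which gene it is counted from. For *Adamts16*, *Coro2a* ranked 18, *Myo18b* 28 and *Crybb1* 58. For *Myo18b*, *Crybb1* ranked 4, *Adamts16* 25 and *Coro2a* 391. For *Crybb1*, *Coro2a* ranked 39 and *Adamts16* 84, and for *Coro2a*, *Adamts16* ranked 459, *Crybb1* 1946 and *Myo18b* 7475.

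Among the genes around the members 1 was called, in a contrast where 1.47% of all 9001 genes were. Within 500 kb of *Coro2a*, 9 genes were tested and 0 were called in the active IKKβ contrast by edgeR (2 at an unadjusted p under 0.05), among them Trim14, 0.8 kb away, at -0.19 ± 0.18. Of the 6 tested around *Crybb1*, 0 were called (0 at an unadjusted p under 0.05), and these include Cryba4, a second crystallin gene 3.3 kb away (0.05 ± 0.55), and Tpst2, 7.1 kb away (0.07 ± 0.19). Around *Myo18b* 1 of 9 was called, Grk3, a receptor kinase 14.1 kb away, which rose by 1.01 ± 0.19 (edgeR adjusted p = 0.0043), and 2 of the 9 had an unadjusted p under 0.05. The only tested neighbour of *Adamts16* was Ice1, at -0.03 ± 0.21. All 6 tested neighbours of *Crybb1* are also within 500 kb of *Myo18b*.

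**Figure D5:**
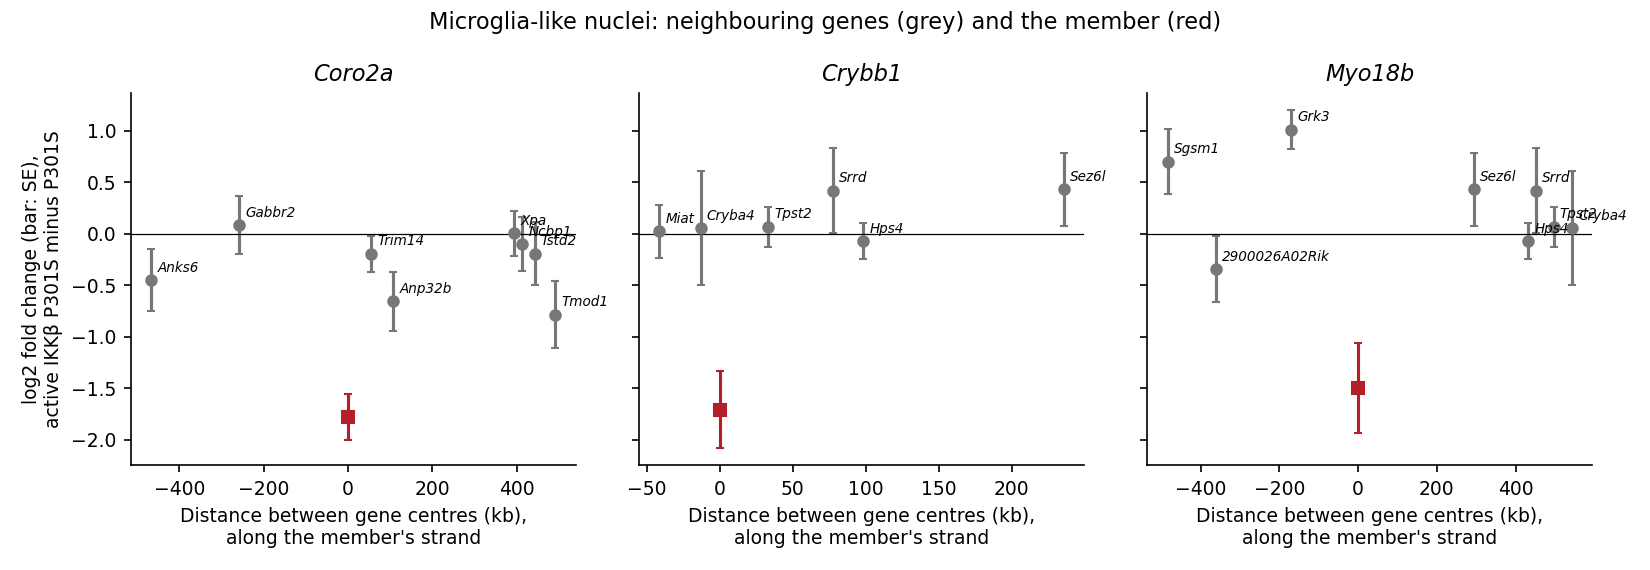
Log2 fold change of active IKKβ P301S minus P301S mice (vertical axis, bars of 1 SE) against the distance between gene centres in kb along the strand of the named gene, for *Coro2a*, *Crybb1* and *Myo18b* (red squares) and the nearest tested genes around them (grey circles). The farthest tested neighbours of *Coro2a* (Galnt12) and *Myo18b* (Miat) are not drawn. The squares stand at -1.78, -1.71 and -1.50, and the circle for Grk3, a neighbour of *Myo18b*, at 1.01.

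Relatives and partners of the 4 genes were counted over lists that leave the 4 genes out, beside a median of -0.00 over all 9001 genes and 1.47% of them called. In the active IKKβ contrast, 0 of 6 coronins (median -0.08, 0 at an unadjusted p under 0.05) and 0 of 7 genes of the NCoR complex and liver X receptors (median -0.07, 0 at an unadjusted p under 0.05) were called by edgeR. Coro7 stood at 0.23 ± 0.20 and Ncor1, the scaffold of the complex, at 0.10 ± 0.13. Of 5 ADAMTS proteases 0 were called (median -0.26, 2 at an unadjusted p under 0.05, with Adamts6 at -0.65 ± 0.25 and Adamts3 at 0.32 ± 0.34), and the single crystallin tested, Cryba4, was not called either.

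Unconventional myosins moved in both directions. The actin motor Myo10 rose by 1.57 ± 0.38 (edgeR adjusted p = 0.036), and Myo1d fell by 1.18 ± 0.27 on the log2 scale (edgeR adjusted p = 0.025). Of 3 sarcomere genes tested, Ttn, which encodes the giant muscle protein titin, rose from a mean of 1.57 CPM in P301S mice to 235.9 CPM in active IKKβ P301S mice (log2 fold change 7.06 ± 0.49, edgeR adjusted p = 1.9e-08). These means are of CPM scaled by the library factors of the edgeR fit.

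The homeostatic list gives the background against which the members can be seen. Of 24 genes, 2 fell, 0 rose, 8 had an unadjusted p under 0.05 and 22 had a negative value, with a median of -0.26, where 46 of all 9001 genes fell, 785 had an unadjusted p under 0.05 and 4528 were negative. Those called were Fcrls, an Fc receptor-like microglial gene (-2.83 ± 0.65, edgeR adjusted p = 0.027), and Serpine2 (-1.30 ± 0.22, edgeR adjusted p = 0.0018). Of 13 NF-κB feedback genes, 7 rose and 0 fell, with a median of 1.36, where 86 of all 9001 genes rose. They include Tnip1, an inhibitor of NF-κB signalling (2.09 ± 0.24, edgeR adjusted p = 2.0e-05), Relb, a subunit of NF-κB (1.54 ± 0.28, edgeR adjusted p = 0.0028), Birc3, a ubiquitin ligase of the pathway (1.36 ± 0.22, edgeR adjusted p = 0.0012), and Traf3, an adaptor (1.19 ± 0.21, edgeR adjusted p = 0.0024). In the P301S and knockout contrasts no gene of these 8 lists was called by edgeR, save Myo1e, an actin motor, which rose in P301S mice (1.83 ± 0.31, edgeR adjusted p = 0.019) and is named here after its value was seen. That call was lost at least without non-transgenic mouse 1 and without P301S mouse 3, where 0 of all genes were called.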

How the data were processed

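Nuclei of frozen cortex (1 hemisphere per mouse, 11 mice) were profiled with the 10x 3′ kit. The submitters' processing notes name Cell Ranger 3.1.0 and Seurat 3.0. The deposited values are raw UMI counts per gene and barcode, aligned by the authors to mm10 with unspliced transcripts counted. They were not normalised.

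Of 114118 barcodes, 112539 had 300 to 8000 genes and no more than 5% mitochondrial UMIs, and of these 9474 doublets (8.42%) were removed with a caller based on artificial doublets at 0.8% per 1000 barcodes. DoubletFinder and MAST, used in the study, were not run. Counts scaled to 10000 per nucleus, 2000 variable genes, 15 principal components, 20 neighbours and Leiden clustering (leidenalg 0.10.2, resolution 0.1) gave 19 clusters. Names ending in "like" rest on at least 3 raised markers of that type, and 4 clusters with 20778 nuclei stayed unnamed. Rebuilt names can differ from those of the study.

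Raw counts were summed per mouse and type. Genes passing filterByExpr were tested with edgeR 4.0.16 (quasi-likelihood, TMM, 1 term per genotype, all 11 mice, Benjamini-Hochberg), with DESeq2 1.42.0 as an alternative, and the script was tested on simulated data. Standard errors are the log2 fold change over the square root of F. Mice are labelled as separate animals. Microglia-like sums of 387450 to 1622586 UMIs per mouse limit precision, and the 4 genes have 18 to 210 UMIs per mouse there, so low counts add counting error. CPM in the text are raw counts per 1000000 counts of the type in that mouse, with 3 exceptions. The Ttn means, the profiles of similar genes and the shares of all genes with a given order of mice use TMM-scaled CPM. Exact permutation tests used SciPy 1.17.1.

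The 4 genes, the lists and the tests were chosen with earlier results of these data known. Besides the 4 genes, the text names the 3 most similar genes of each, tested genes within 500 kb, and from each list the called genes (up to 4 by adjusted p) or else the 2 of highest mean CPM. A result that this rule would name is not reported here. Alternatives were breeding line as a term or as separate groups, age, a replicate block, DESeq2 size factors, DESeq2, no filter, doublets kept, nuclei thinned to 1000 UMIs, other myeloid nuclei left out, microglia chosen by markers alone, and each mouse left out.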

Additional observations from a re-analysis of the deposited data

How the results depend on the processing

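The active IKKβ values of the 4 genes kept their direction under every alternative run. Over the 9 that keep all mice and do not model the breeding line they ran from -1.97 to -1.63 for *Coro2a*, -2.56 to -2.32 for *Adamts16*, -1.93 to -1.56 for *Crybb1* and -1.68 to -1.36 for *Myo18b*. With breeding line as a term *Adamts16* moved to -1.82, and with groups split by line it moved to -1.87, *Crybb1* to -0.95 and *Myo18b* to -0.31. Leaving out 1 mouse at a time gave -2.12 to -1.50 for *Coro2a*, where the lowest and highest are without active IKKβ mouse 2 and 1. For *Crybb1* it gave -2.18 to -1.32, and the lowest is without P301S mouse 3, which leaves only floxed-line P301S mice. Genes called in this contrast numbered 132, and 67 with the line term, 68 split by line, 339 with no filter on low counts and 63 to 198 on leaving out a mouse (63 without P301S mouse 2, 68 without active IKKβ mouse 2 and 198 without P301S mouse 3).

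In the P301S contrast *Myo18b* passed with no filter (-0.98, edgeR adjusted p = 0.00116), a setting with 117 genes called in place of 3. No call is read from it, since this contrast also holds P301S mouse 3, which took part in choosing the gene. With the filter, the value without that mouse was -0.41. With groups split by line *Myo18b* was at -1.30. No call is read from that value either, because the active-line side is 1 P301S mouse that also took part in choosing the gene. *Adamts16* turned to -0.014 in thinned nuclei. Genes called there numbered 3, and 22 with the line term, 67 split by line, 117 with no filter, 9 in thinned nuclei, 9 with other myeloid nuclei left out, 12 with microglia chosen by markers alone, and 0 to 29 on leaving out a mouse (0 without non-transgenic mouse 1 or P301S mouse 3, 29 without P301S mouse 1). In the knockout contrast *Adamts16* turned to -0.30 with the line term, -0.27 split by line, -0.38 with age and -0.0024 by markers alone. Against non-transgenic mice it turned to -0.29, -0.32 and -0.32 with the line term, the split and age, and *Crybb1* turned to 0.16 split by line and 0.24 in thinned nuclei. Genes called were 39 and 34 with no filter in these 2 contrasts, 3 with the line term in the second, and 0 to 2 in each on leaving out a mouse. The line term of *Coro2a* was 0.046 with no filter. Without thinning, the share of nuclei turned to 0.854 percentage points for *Coro2a*, 1.36 for *Crybb1* and 6.16 for any of the 4 genes (knockout P301S minus non-transgenic) and 3.22 for *Adamts16* (knockout P301S minus P301S). No call is read from the *Myo18b* values named. None of the other member values passed a test in either setting, and the cause was not tested.

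With the replicate block, the active IKKβ values were -1.75 for *Coro2a*, -2.44 for *Adamts16*, -1.68 for *Crybb1* and -1.55 for *Myo18b*, and the P301S contrast called 1 gene in place of 3. The block changed no other call. Deviations of same-numbered mice from their group means correlated at -0.0775 to 0.0872, so same-numbered mice were not treated as pairs, although in the active line non-transgenic and active IKKβ mice of the same title number also share their age (correlations -0.0195 and 0.0837).

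On leaving out a mouse, *Adamts16* ran from -0.31 to 0.38 (P301S contrast), -0.26 to 0.43 (knockout), -0.063 to 0.30 (knockout against non-transgenic) and -1.03 to -0.75 (breeding line). In knockout against non-transgenic mice *Coro2a* ran from -0.17 to 0.043, *Myo18b* from -0.80 to 0.39 and *Crybb1* from -0.24 to 0.066, and the line term ran from -0.12 to 0.16 for *Coro2a* and -0.52 to 0.44 for *Crybb1*. Outside microglia, with no call in any fit, *Adamts16* ran from -0.84 to 0.11 in astrocyte-like, -0.52 to 0.042 in excitatory neuron-like, -0.39 to 0.078 in inhibitory neuron-like and -0.51 to 0.39 in oligodendrocyte-like nuclei. *Coro2a* ran from -0.068 to 0.070 in excitatory neuron-like, -0.67 to 0.47 in inhibitory neuron-like and -0.21 to 0.14 in striatal projection neuron-like nuclei, and *Myo18b* from -0.42 to 0.087 and -0.25 to 0.83 in the 2 neuronal types named first. Groups of 2 mice, and 18 to 210 UMIs of a gene per mouse, limit all of these values.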
